A study of Mus musculus with 5 samples.

Results

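Heat shock proteins and chaperones were described in mouse HT22 cells after knockdown (KD) of the long non-coding RNA Gas5 by small interfering RNA (siRNA). They were taken as the protein-coding genes whose symbol begins with Hspa, Hspb, Hspd, Hspe, Hsph or Hsp90, or with Dnaja, Dnajb, Dnajc or Cct followed by a digit, without pseudogene symbols, and with at least 10 counts summed over the 5 RNA-seq libraries. Of 82 such symbols, 76 reached that minimum, out of 55487 genes counted. The 6 that did not were Dnajb3, Dnajb8, Dnajc5b, Dnajc5g, Cct8l1 and Hspb3. HT22 is an immortalised line of mouse hippocampal origin, and all 5 libraries came from this line, harvested 48 h after siRNA at 10 nM had been delivered with the INTERFERin reagent. The KD libraries carried GAS5 siRNA210 (1 library) or GAS5 siRNA596 (2 libraries). The 2 NC libraries carried a negative control siRNA by their titles and by the study's methods, although a label calls them untreated. No source says that libraries of a group came from separate cultures, so P-values measure the spread between these libraries, which may be technical.

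Chaperones bind unfolded proteins and help them to fold, to assemble or to reach a protease. HSP70 proteins work in cycles of ATP hydrolysis that J proteins (DNAJA, DNAJB, DNAJC) start and that HSP110 proteins reset by exchanging nucleotide, while HSP90 completes late folding steps of client proteins. The ring complexes HSP60/HSP10 in mitochondria and TRiC in the cytosol enclose their substrates, and small HSPs hold denatured proteins in a soluble state. Heat shock factors switch on part of the cytosolic set through heat shock elements, and the unfolded protein response of the endoplasmic reticulum (ER) switches on the ER set through ER stress elements.

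The promoter stretches below are shown because they carry the recognition letters of these 2 responses. RefSeq promoters (GRCm38.p6, 250 bases before to 50 after each start) were matched by symbol for 62 of the 76 members. Dnajc18, Hspa9, Dnajc22, Dnajc11, Hspb2, Dnajc5, Dnajc30, Hsp90aa1, Cct4, Dnajc2, Hsp90ab1, Hspa13, Dnajc12 and Hspa8 were not matched. The ER stress element was searched as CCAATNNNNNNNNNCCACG and the heat shock element as GAANNTTCNNGAA, on both strands, where N is any base. The ER stress element was present in 3 of the 62 members, all of the ER, and in 0.137% of the 27025 genes in the table. The heat shock element was present in 4 of the 62 members and in 0.662% of all genes in the table. Only these exact letters were searched, and the promoters of Hspa1a, Hspa1b, Hspb1 and Dnajb1 held no match to the heat shock element as written. The lack of a match thus does not show that a promoter has no such element. Matches are a description of letters and not of bound sites. Each stretch has 30 bases, read 5′ to 3′ on the gene's strand, with the matched letters in capitals.
Hspa5, chr2:34772020-34772049, plus strand: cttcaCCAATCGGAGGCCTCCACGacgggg
Hsp90b1, chr10:86705632-86705661, minus strand: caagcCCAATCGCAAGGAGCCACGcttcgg
Hsp90b1, chr10:86705527-86705556, minus strand: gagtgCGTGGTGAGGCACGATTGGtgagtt
Dnajc3, chr14:118937822-118937851, plus strand: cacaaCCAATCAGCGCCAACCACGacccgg
Hspe1, chr1:55088053-55088082, plus strand: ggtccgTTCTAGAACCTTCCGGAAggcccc
Dnajb6, chr5:29735844-29735873, plus strand: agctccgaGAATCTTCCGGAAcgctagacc
Hsph1, chr5:149636279-149636308, minus strand: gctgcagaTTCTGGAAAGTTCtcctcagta
The stretches of Hspa5, Dnajb6 and Hsph1 overlap annotated exons of those genes and that of Hspe1 an exon of Hspd1, whereas those of Hsp90b1 and Dnajc3 overlap none. The second Hsp90b1 stretch and the Hsph1 stretch hold the match on the opposite strand. The Hspe1 stretch holds 2 overlapping matches and lies in the interval between the divergent starts of Hspe1 and Hspd1, so that the same letters count for both genes. On the strand of Hspe1 the first matched letter lies 89 bases before its RefSeq start. On the strand of Hspd1 the first matched letter is the other end of the match and lies 144 bases before its RefSeq start.

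The libraries held 30660265 to 36492134 counts each. Gas5 was first read in every library as a check of the labels. Its level was 90.3 and 76.0 CPM (counts scaled to the effective library size) in NC replicates 1 and 2, 59.6 CPM with siRNA210 and 65.8 CPM with siRNA596 replicate 1. The level of 179 CPM in the library labelled siRNA596 replicate 2 was above every NC library and thus against the label. The principal transcript of Gas5 has 665 bases, and short transcripts were higher in this library in general, as described below. On the log2 scale, genes of a median length of 523 bases had a median difference of 0.55 and an upper quartile of 1.33. Gas5 had 1.31. How much of the Gas5 level goes with length was not tested. The mean counts deposited by the authors equal those of the other 4 libraries to within 0.0977%, and the comparison of KD with NC below likewise rests on 2 KD and 2 NC libraries. In these 4 libraries Gas5 was lower in KD by a log2 fold change of -0.41 (SE 0.11, unadjusted *P* = 0.0038, adjusted *P* = 0.967 by edgeR). Of 10 neuronal markers, 5 stayed under 1 CPM in every library, among them Snap25, Nefl and Gria2 at 0 counts, and 3 were at 1 CPM or more in every library, Map2 (69.0 and 86.9 CPM in NC), Tubb3 (25.3 and 14.9 CPM) and Slc17a7 (3.44 and 2.66 CPM). The neural progenitor markers Nes (509 and 446 CPM in NC) and Pax6 (41.9 and 49.3 CPM) were present and Sox2 was at 0 counts. All 4 fibroblast or mesenchymal markers listed (Vim, Col1a1, Col1a2, Fn1) were above 1 CPM throughout, with a sum of 11824 to 11925 CPM in NC, 12532 to 13324 CPM with siRNA210 and siRNA596 replicate 1, and 9745 CPM in the library labelled siRNA596 replicate 2. The label of hippocampal neuronal cells was thus met by some of its markers and not by others.

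Chaperone mRNA was abundant in HT22 cells and was concentrated in a few genes. The 76 members took 1.47% of all counts in the NC mean. Levels between genes were compared as FPKM, here CPM per kilobase of the principal transcript of each gene. The median member stood at 20.8 FPKM in the NC mean, against 7.16 FPKM for all genes that passed the filter on low counts. With the union of all annotated exons as length the median member was lower, as given in the last section. The median of all genes on that length is not given. In the NC mean 14 members reached 100 FPKM, 34 lay from 10 to 100, 17 from 1 to 10 and 11 under 1. The 5 highest members held 49.5% of the summed FPKM of all 76.

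The highest was Hsp90ab1, the constitutive cytosolic HSP90, at 1303 FPKM in the NC mean, followed by Hspa8, the constitutive cytosolic HSP70, at 721 FPKM. Hsp90aa1, the stress-responsive cytosolic HSP90, stood at 290 FPKM, Hsp90b1, the ER HSP90, at 267 FPKM, and Hspa5 (BiP), the ER HSP70, at 250 FPKM. The last 3 genes kept this order in both NC replicates, with siRNA210 and with siRNA596 replicate 1. However, each of the 3 differed more between the NC replicates than from its neighbour. With the union of all annotated exons as length, Hspa5 (217 FPKM) stood above Hsp90b1 (187 FPKM) in the NC mean. On the level scale per length, Hsp90ab1 exceeded Hsp90aa1 by 4.04 and 5.07 times in the NC replicates, 4.43 times with siRNA210 and 4.30 times with siRNA596 replicate 1.

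Next came 2 TRiC subunits, described below. In the mitochondrial set Hspd1 (HSP60) and its lid Hspe1 (HSP10) were nearly equal over the principal transcript, at 191 and 189 FPKM in the NC mean. With the union of all annotated exons as length Hspd1 stood at 175 FPKM and Hspe1 at 99.1 FPKM. The near equality of Hspd1 and Hspe1 thus depends on the length used. Hspa9, the mitochondrial HSP70, stood at 133 FPKM over the principal transcript. Among the J proteins the highest of each class were Dnaja2 at 83.9 FPKM, Dnajb6 at 69.9 FPKM and Dnajc8 at 82.0 FPKM, and the lowest were Dnaja4 at 0.450 FPKM, Dnajb7 at 0.0879 FPKM and Dnajc6, an auxilin of clathrin uncoating in neurons, at 0.0196 FPKM. With the union of exons as length, Dnajb11 (38.6 FPKM) stood above Dnajb6 (18.5 FPKM) and Dnajc9 (49.1 FPKM) above Dnajc8 (45.0 FPKM). The small HSPs ran from Hspb8 at 57.5 FPKM to Hspb7 at 0.272 FPKM, with Hspb1 at 37.1 and Hspb6 at 16.6 FPKM. HSP110 ran from Hspa4 at 81.8 FPKM to Hspa4l at 13.3 FPKM, with Hsph1 at 51.1 FPKM. Of the stress-inducible cytosolic HSP70 genes, Hspa1b stood at 14.2 FPKM, above the median of all genes, and Hspa1a at 0.978 FPKM, below it. Of the 50-base words of the transcripts of Hspa1a, 58.8% also occur in Hspa1b, so the split of reads between both genes is uncertain. Words shared with other genes also made up 50.1% of Hspb1, 47.5% of Hsp90aa1, 42.1% of Hspd1 and 39.4% of Hspa8. The reads of these genes carry the same uncertainty.

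**Figure D1:**
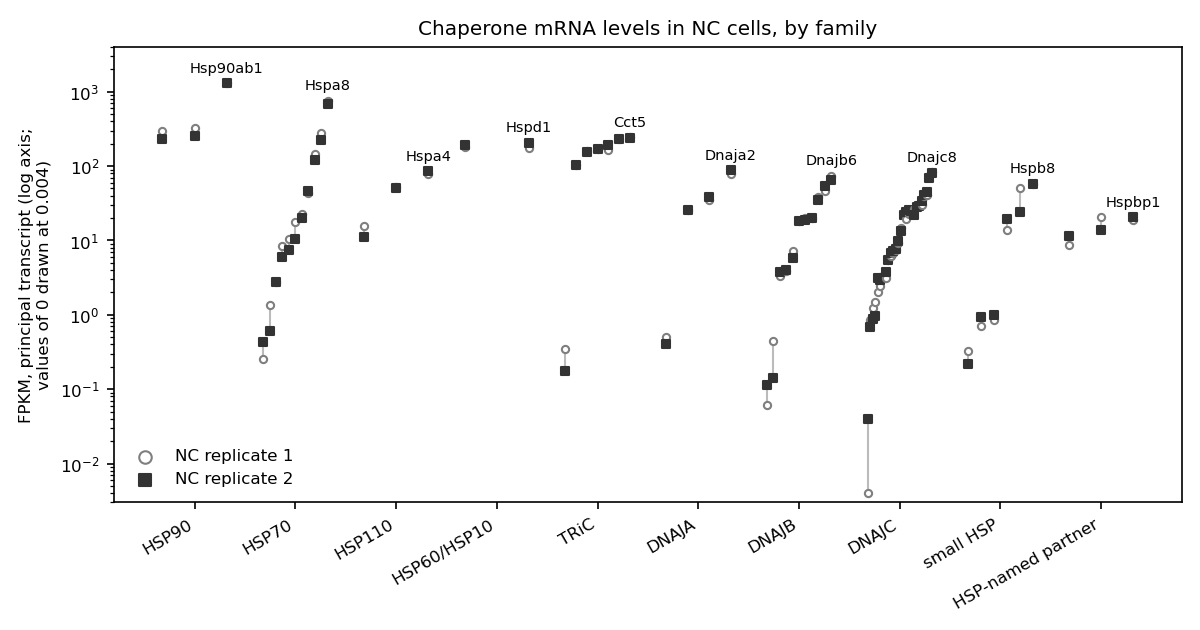
Levels of the 76 members in NC cells by family, in FPKM over the principal transcript on a log axis, with an open circle for NC replicate 1 and a filled square for NC replicate 2, joined by a line. Hsp90ab1 stands highest at 1303 FPKM in the NC mean, and values of 0 are drawn at 0.004.

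The 8 subunits that make up the TRiC ring in these cells were close together per length. TRiC folds actin and tubulin and is built of 8 different subunits, of which Cct2, Cct3, Cct4, Cct5, Cct7 and Cct8 were members. Tcp1 falls outside the rule by its symbol, and Cct6a because the annotation used (GENCODE M21) classes it as a processed transcript; both are given here for the complex only. In the NC mean the highest was Cct5 at 241 FPKM, then Cct2 at 232, Tcp1 at 205, Cct3 at 178, Cct8 at 169, Cct7 at 158, Cct6a at 129 and Cct4 at 103 FPKM, a range of 2.33-fold. With the union of all annotated exons as length the range was 3.21-fold and the order changed. Cct6b, the testis form of the Cct6 position, had 22 and 12 counts in the NC replicates and 0.262 FPKM.

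**Figure D2:**
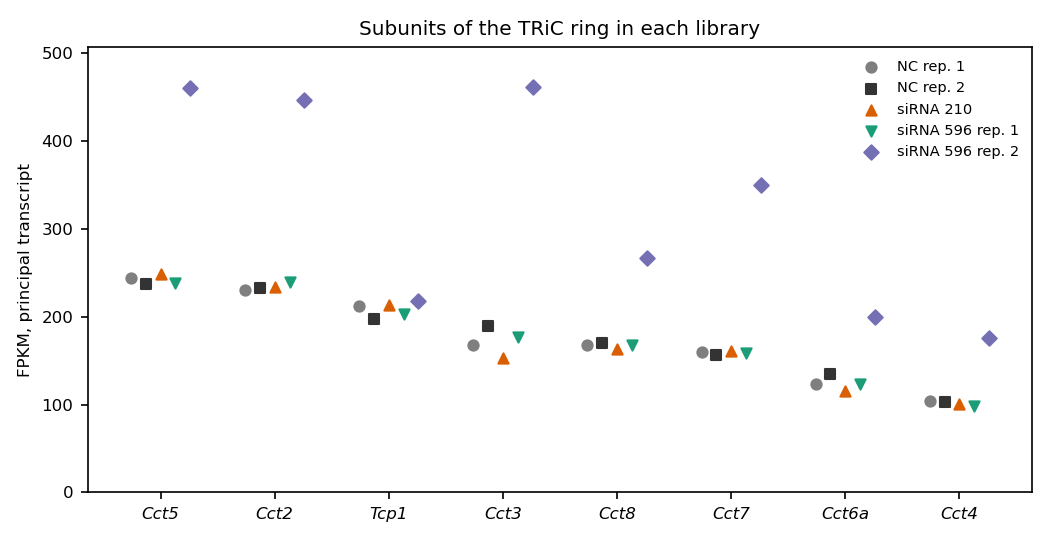
FPKM over the principal transcript of the 8 subunits of the TRiC ring in each of the 5 libraries, with 1 symbol per library. For each subunit the NC, siRNA210 and siRNA596 replicate 1 symbols lie together, and the siRNA596 replicate 2 symbol lies above them, least so for Tcp1.

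The main comparison asked whether chaperone mRNAs differed between GAS5 KD and NC cells. In bulk RNA a change in fewer cells and a smaller change in every cell cannot be told apart. Of the 76 members 74 passed the filter on low counts. Dnajb7 and Dnajc6 did not pass it. With edgeR's quasi-likelihood test on 2 KD and 2 NC libraries, 3 of the 74 had an unadjusted *P* under 0.05, namely Hspe1, Hspb9 and Hspa1l, all lower in KD. Over all 15867 genes tested, 3.30% passed the same threshold, so the share of members, 4.05%, is near the background. None of the members passed an adjusted *P* of 0.05 in edgeR or in DESeq2, and DESeq2 placed 0 of the 74 under an unadjusted *P* of 0.05. The share of all genes under that threshold in DESeq2 is not given, so this 0 has no background beside it. With a fold change of at least 2 in addition, 2 members were left (Hspb9 and Hspa1l), against 0.876% of all genes.

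The median log2 fold change of the 74 members was 0.0025, against -0.0023 over all genes tested. Of the members 59 (79.7%) lay within 0.2 of 0 on the log2 scale, against 67.9% of all genes. Both KD libraries were above both NC libraries for 12 members (16.2%), with a background of 16.7% of all genes, and below them for 10 members (13.5%), with a background of 16.2%. The members thus separated the groups no more often than genes in general.

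Hspe1 encodes the HSP10 lid of the mitochondrial folding chamber (chr1:55088132-55091307, plus strand, GRCm38). Its level was 142 and 151 CPM in the NC replicates, 128 CPM with siRNA210 and 126 CPM with siRNA596 replicate 1. Both KD libraries were below both NC libraries, by a log2 fold change of -0.20 (SE 0.079, unadjusted *P* = 0.0318, adjusted *P* = 0.967 by edgeR). In the library labelled siRNA596 replicate 2 the level was 502 CPM, and with that library in the fit the log2 fold change was 0.79 and turned in direction. Hspd1, its partner, stood at 428 and 499 CPM in NC and at 426 and 470 CPM in the same KD libraries, so its groups overlapped (log2 fold change -0.05, SE 0.098). Of the 50-base words of Hspe1, 22.8% also occur in other genes.

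Hspb9, a small HSP described from testis (chr11:100713850-100714575, plus strand), and Hspa1l, an HSP70 also known from testis (chr17:34972703-34979285, plus strand), were near the limit of detection. Hspb9 had 22 and 28 counts in NC, 6 with siRNA210 and 11 with siRNA596 replicate 1, a log2 fold change of -1.50 (SE 0.62, unadjusted *P* = 0.0383, adjusted *P* = 0.967 by edgeR). Its count in the library labelled siRNA596 replicate 2 was 19. Hspa1l had 22 and 41 counts in NC, 9 with siRNA210, 14 with siRNA596 replicate 1 and 7 in siRNA596 replicate 2, with a log2 fold change of -1.39 (SE 0.59, unadjusted *P* = 0.0417, adjusted *P* = 0.967 by edgeR over 4 libraries). It was the only member to keep an unadjusted *P* under 0.05 with all 5 libraries (unadjusted *P* = 0.0445, adjusted *P* = 0.963 by edgeR), where the background was 0.372% of genes. The antisense gene Gm10501 overlaps Hspa1l over 2387 bases and holds 71.4% of its 50-base words, and since the strand setting of the counting is not stated, reads of the 2 genes cannot be told apart.

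**Figure D3:**
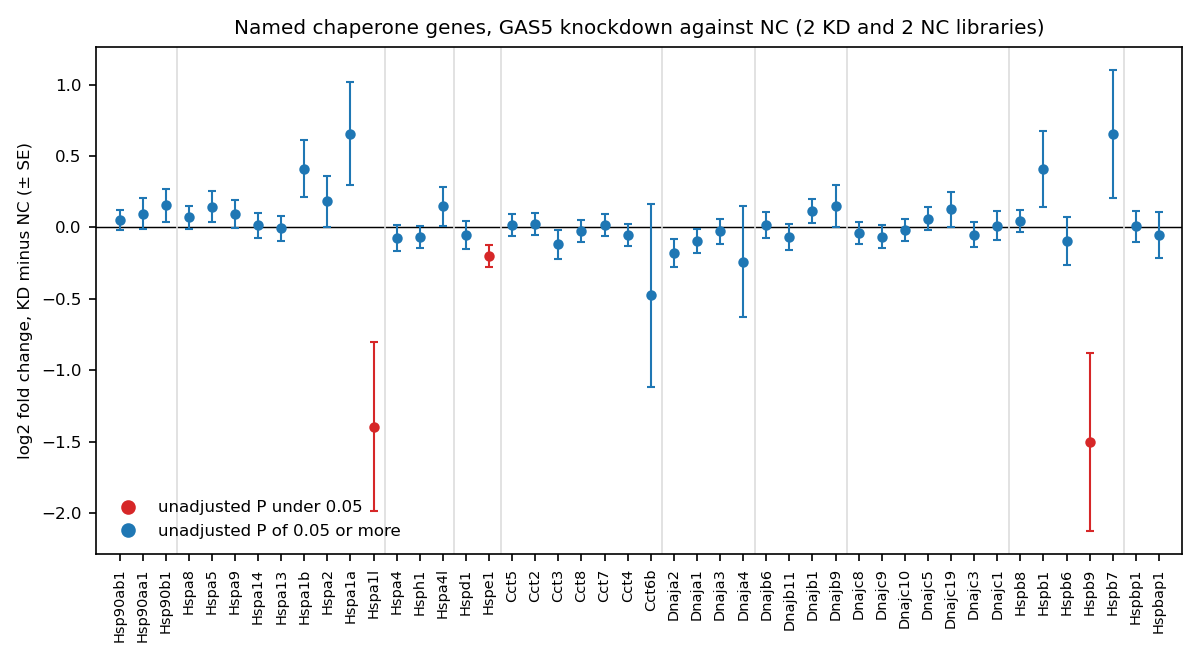
Log2 fold change (KD minus NC, 2 libraries each) with its SE for the named members that passed the filter, grouped by family with vertical lines between families. Red points had an unadjusted P under 0.05 (Hspa1l, Hspe1 and Hspb9, all below 0), and most blue points lie within 0.2 of 0.

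In the cytosol, Hsp90ab1 stood at 3285 and 3284 CPM in NC, 3416 CPM with siRNA210 and 3410 CPM with siRNA596 replicate 1. Both KD libraries were above NC by a small amount that did not pass the test (log2 fold change 0.05, SE 0.072). Hspa8 had 1808 and 1644 CPM in NC and 1832 and 1803 CPM in KD, so its groups overlapped (log2 fold change 0.07, SE 0.080). Hspa14, a ribosome-associated HSP70, had a log2 fold change of 0.01 (SE 0.085) and Hspa2, an HSP70 of germ cells, of 0.18 (SE 0.18). Of the nucleotide exchange factors of the HSP110 family, Hspa4 had -0.07 (SE 0.090), Hsph1 -0.07 (SE 0.078) and Hspa4l 0.15 (SE 0.14). The summed CPM of the HSP90 members was 4990 ± 290 in NC and 5273 ± 4.73 in KD (mean ± SD, n = 2 each), and that of the HSP70 members 3337 ± 351 and 3579 ± 61.0.

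The stress-inducible genes Hspa1a, Hspa1b and Hspb1 had positive fold changes that did not pass the test. Hspa1a stood at 4.01 and 1.80 CPM in NC and at 5.06 and 4.08 CPM in KD, a log2 fold change of 0.66 (SE 0.36, unadjusted *P* = 0.1 by edgeR). Hspa1b stood at 50.1 and 29.3 CPM in NC and at 52.0 and 53.7 CPM in KD, a log2 fold change of 0.41 (SE 0.20, unadjusted *P* = 0.0713 by edgeR). Hspb1 (HSP25), a small HSP that binds unfolding proteins, stood at 45.4 and 21.5 CPM in NC and at 46.1 and 42.9 CPM in KD, a log2 fold change of 0.41 (SE 0.27). In all 3 genes NC replicate 1 lay close to the KD libraries, and NC replicate 2 lay apart from the other 3. Of the other small HSPs, Hspb8, a partner of Bag3 in selective autophagy, had a log2 fold change of 0.04 (SE 0.078) and Hspb6 of -0.09 (SE 0.17).

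Among the 13 ER members the median log2 fold change was -0.0031, and 0 passed an unadjusted *P* of 0.05. Hspa5 had 1021 and 814 CPM in NC and 1037 and 995 CPM in KD, and Hsp90b1 had 851 and 657 CPM in NC and 850 and 833 CPM in KD. In both genes NC replicate 1 was level with KD, and the fold changes were 0.15 (SE 0.11) and 0.16 (SE 0.11) on the log2 scale. Of the ER J proteins, Dnajb9, which acts on Hspa5 in the unfolded protein response, had 0.15 (SE 0.15), Dnajb11 -0.07 (SE 0.091), Dnajc3 -0.05 (SE 0.089), Dnajc10, a disulfide reductase, -0.02 (SE 0.078) and Dnajc1 0.01 (SE 0.10). Hspa13, an ER-associated HSP70, had -0.01 (SE 0.086).

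Among the 9 mitochondrial members Hspe1 was the only gene with an unadjusted *P* under 0.05, and the median log2 fold change was -0.03. Hspa9 had 443 and 367 CPM in NC and 434 and 431 CPM in KD. Dnaja3 and Dnajc19, J proteins of the matrix and of the import motor, had log2 fold changes of -0.03 (SE 0.087) and 0.13 (SE 0.12). Of the J proteins outside mitochondria and the ER, Dnaja1 and Dnaja2, general partners of Hspa8, had -0.09 (SE 0.087) and -0.18 (SE 0.096). Dnajb1, the main J protein of the heat shock response, had 0.11 (SE 0.082) and Dnajb6, which suppresses polyglutamine aggregation, 0.02 (SE 0.089). Dnajc5 of synaptic vesicles had 0.06 (SE 0.081) and Dnajc9, a histone chaperone, -0.06 (SE 0.078). All 4 DNAJA members had fold changes below 0, beside 50.5% of all genes, and 0 of the 4 passed an unadjusted *P* of 0.05. Their summed CPM was 520 ± 33.2 in NC and 478 ± 35.1 in KD (n = 2 each). This difference was somewhat above the SD of either group. However, the groups overlapped, with sums of 497 and 544 CPM in NC and 453 and 503 CPM in KD.

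TRiC hardly differed between the groups. Its member subunits summed to 2300 ± 20.5 CPM in NC and 2276 ± 24.6 CPM in KD (n = 2 each). The log2 fold changes of Cct2, Cct3, Cct4, Cct5, Cct7 and Cct8 ran from -0.12 to 0.03, and 0 of the 7 TRiC members passed an unadjusted *P* of 0.05. Cct2 was above NC in both KD libraries and Cct4 below, with log2 fold changes of 0.03 and -0.05.

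The genes that work with the members were read as well, as 46 partners in 5 lists that cover heat shock factors, cochaperones, prefoldin with Tcp1, ER folding factors and mitochondrial factors. In the edgeR fit 0 of the 46 passed an unadjusted *P* of 0.05, beside 3.30% of all genes. DESeq2 placed 1 under it, Lonp1, with no share of all genes given. Lonp1 stood at 493 and 371 CPM in NC, 556 CPM with siRNA210 and 486 CPM with siRNA596 replicate 1. Its groups thus overlapped. Log2 fold changes ran from -0.18 for Unc45a to 0.27 for Lonp1, the protease of the mitochondrial matrix. Hsf1, the main heat shock factor, had -0.16 (SE 0.078) and Hsf2 -0.03 (SE 0.12).

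Several members differed between NC replicate 2 and the 3 libraries most like it. Against the mean of NC replicate 1, siRNA210 and siRNA596 replicate 1, on the log2(CPM + 0.5) scale, NC replicate 2 was lower by over 1.5-fold for 3 members, Hspa1a (-1.08), Hspb1 (-1.04) and Hspa1b (-0.82). These are 4.05% of the members, with a background of 4.21% of all genes. It was higher by over 1.5-fold for 1 member, Hspa1l (0.79), 1.35% of the members with a background of 2.51%. At this 1.5-fold cut the members as a whole thus stood apart in this library no more often than other genes. Without a cut, 42 of 74 members (56.8%) were lower in NC replicate 2, beside 50.4% of all genes, and 32 were higher. Smaller differences in the same direction as in the first 3 were seen, among others, for Hspb7 (-0.53), Dnajc15 (-0.48), Hspa12a (-0.45), Hspb11 (-0.44), Hspa4l (-0.44), Hspa2 (-0.44), Hsp90b1 (-0.36), Dnajc21 (-0.35), Dnajc28 (-0.34), Hspa5 (-0.32), Dnajb9 (-0.31) and Hsp90aa1 (-0.29). The median was -0.25 over the 11 HSP70 members and -0.29 over the 3 HSP90 members, but 0.10 over the 4 DNAJA members, 0.04 over the 13 ER members and -0.01 over TRiC, beside -0.0017 over all genes. Higher in NC replicate 2 were, among others, Hspb9 (0.54, with few counts) and Hspb6 (0.37). Hspe1 and Hspd1, which share a heat shock element, were also higher in NC replicate 2, by 0.19 and 0.18. The other members with that element were split, with Hsph1 at 0.02 and Dnajb6 at -0.14.

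The ER members were split in this library, with 7 higher and 6 lower in NC replicate 2. Of the 13 ER partners 12 were lower, beside 50.4% of all genes, with a median of -0.17 and the lowest values at Sil1 (-0.59), the exchange factor of Hspa5, Xbp1 (-0.45), a transcription factor of the unfolded protein response, and Sdf2l1 (-0.40). The members with an ER stress element printed above did not all follow, since Hspa5 and Hsp90b1 were lower but Dnajc3 was 0.09 higher. Why NC replicate 2 differed was not tested.

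The comparison of KD with NC therefore depended on which NC library it used. Without NC replicate 1, so that the lone NC replicate 2 was assumed to vary like the KD libraries, 18 of 75 members had an unadjusted *P* under 0.05 in edgeR, against a background of 16.5% of all genes. Of these, 13 were higher in KD (background 9.39%) and 5 lower (background 7.06%), and the smallest were Hspb1 (log2 fold change 1.05, unadjusted *P* = 0.000581) and Hspa1b (0.85, unadjusted *P* = 0.000588), both with an adjusted *P* of 0.207. Hspa1a, Hsp90b1, Hspa5, Hsp90aa1, Hspa4l and Hspa9 were among the 13. Without NC replicate 2, 0 of 75 members had an unadjusted *P* under 0.05 in edgeR, against a background of 2.52%, and the log2 fold changes of Hspe1 and Hspa1l were -0.15 and -0.95.

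**Figure D4:**
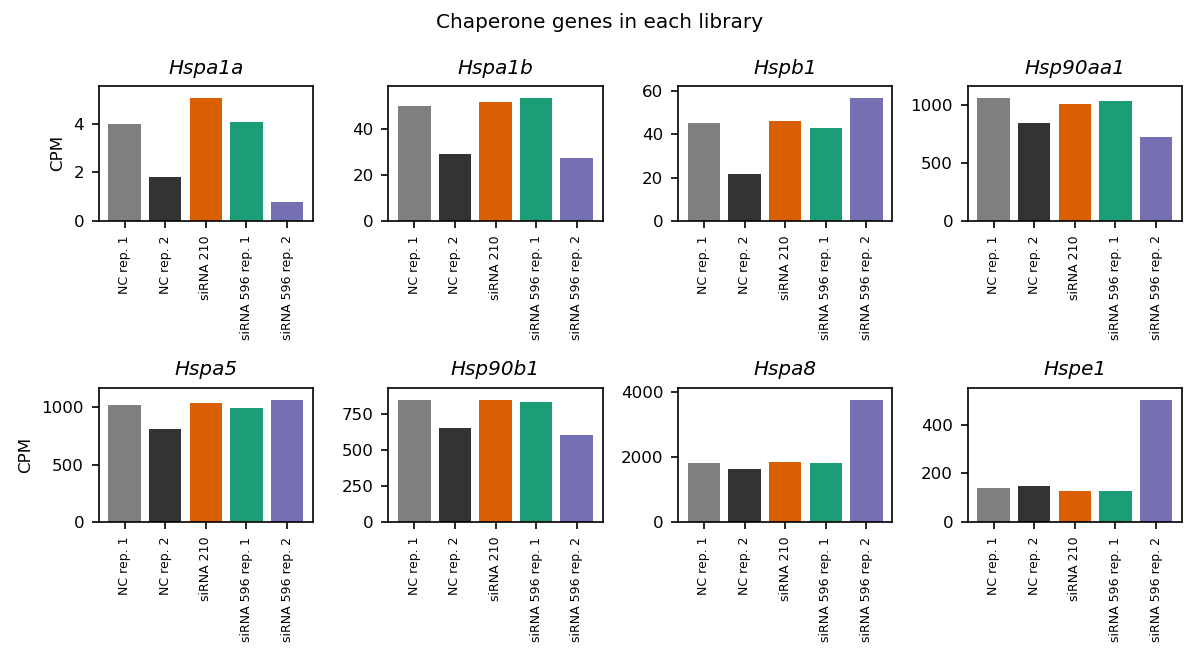
CPM of 8 chaperone genes in each of the 5 libraries, with bars from 0 and 1 scale per gene. Hspa1a, Hspa1b and Hspb1 were lower in NC replicate 2 than in NC replicate 1, siRNA210 and siRNA596 replicate 1, and Hspe1 and Hspa8 were highest in siRNA596 replicate 2.

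The library labelled siRNA596 replicate 2 stood apart for most members. Against the mean of the other 4 libraries it was over 2-fold higher for 16 members (21.6%, background 13.5% of all genes) and over 2-fold lower for 4 members (5.41%, background 15.1%). In either direction that is 27.0% of the members, near the background of 28.7%. The median of the members was 0.37 on the log2 scale, against -0.05 over all genes. The highest were Hspe1 (1.88), Dnajc17 (1.81), Dnajc30 (1.73), Hspbp1 (1.69), Dnajc15 (1.61) and Cct3 (1.43). The lowest were Hspa4l (-1.88), Hspa1a (-1.68), Dnajc13 (-1.18) and Dnajc28 (-1.03). Hspa8 lay between 1644 and 1832 CPM in the other libraries and at 3752 CPM in this library, a difference in 1 library with no test.

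By compartment, the median difference of this library was 0.87 for the 9 mitochondrial members and -0.48 for the 13 ER members, of which 10 were lower. By family it was 0.93 for TRiC and -0.45 for HSP70. The list of Tcp1 with prefoldin, which hands substrates to TRiC, had a median of 1.34, in the direction of TRiC. The 13 ER partners had a median of 0.53, opposite in sign to the ER members. The ratio of Hspd1 to Hspe1 per length was 0.527 in this library and 0.965 to 1.19 in the other 4, and that of Hsp90ab1 to Hsp90aa1 was 9.52.

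The difference also followed transcript length. Over the 74 members Spearman's rho between this library's difference and the length of the principal transcript was -0.65, and over 16127 genes it was -0.51. With the union of all annotated exons as length these were -0.38 and -0.43. These are correlations across genes of the same libraries, and genes are not independent replicates. The 25 shortest members, of 608 to 2060 bases, had a median of 0.93 and 21 of them were higher, whereas the 24 longest, of 3151 to 9479 bases, had a median of -0.44 and 15 were lower. For NC replicate 2 the same rho over the members was -0.11. Not all members followed this order, since 9 of the 24 longest were higher and 10 of the 25 of middle length were lower. Among them were Dnajc15 (1.61, 6193 bases) and Hspa1a (-1.68, 2967 bases, 20 counts in this library). The compartments and lists compared above also differ in length. The shortest ER member had 2461 bases, the shortest ER partner 1108 and the shortest mitochondrial member 659. How much of the difference of single members, families, compartments or lists goes with length was not tested.

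**Figure D5:**
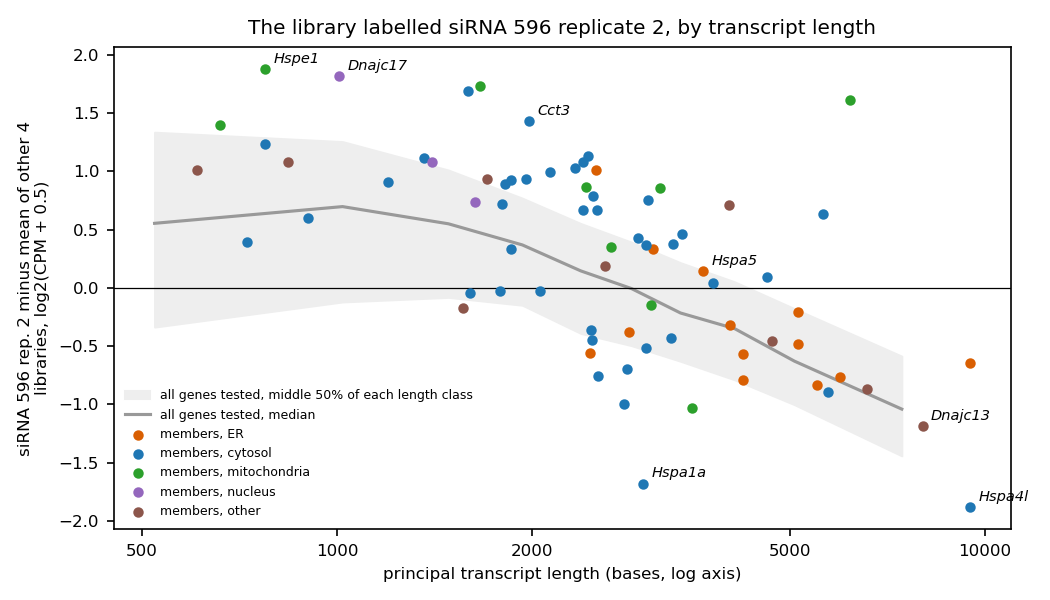
Difference of the library labelled siRNA596 replicate 2 from the mean of the other 4, in log2(CPM + 0.5), against principal transcript length in bases on a log axis. Points are the 74 members by compartment, the grey line is the median of all genes in 10 length classes and the band holds their middle 50%. Most short members, such as Hspe1, lie above 0, and most long ones, such as Hspa4l, lie below.

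With this library included the values of the members changed. Over all 5 libraries the median log2 fold change of the members was 0.19, against 0.01 over all genes. The 3 libraries labelled KD, of which siRNA596 replicate 2 goes against its label in Gas5, were above both NC libraries for 7 members (9.46%, background 8.32%), namely Cct2, Dnajb1, Dnajc15, Dnajc19, Hsp90ab1, Hspb2 and Hspb8, and below for Dnajc13 and Hspa1l (2.70%, background 9.48%). The siRNA210 library lay on the opposite side of both NC libraries from both libraries labelled siRNA596 for 3 members (4.05%, background 4.63%). With siRNA596 alone against NC, 2 libraries each, 1 of 74 members had an unadjusted *P* under 0.05, against a background of 0.259%. It was Dnajc15, a J protein of the mitochondrial inner membrane, at 5.23 and 4.22 CPM in NC, 7.57 CPM in siRNA596 replicate 1 and 18.0 CPM in replicate 2 (log2 fold change 1.44, SE 0.52, unadjusted *P* = 0.0356, adjusted *P* = 0.904 by edgeR). With siRNA210, which has 1 library and no test of its own, Dnajc15 stood at 5.67 CPM, above both NC libraries. Dnajc15 is named for this call, after its values were seen.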

How the data were processed

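RNA-seq was made from 5 libraries of HT22 cells. The counts deposited by the authors are reads per gene, with no normalization, from adapter removal with Trimmomatic, HISAT2 2.1.0 on GRCm38, SAMtools 1.7 and featureCounts 2.0.1 on the Ensembl annotation, per the study's methods and the submitters' processing notes. Neither the strand setting nor the treatment of multi-mapping reads is stated. The authors' table of DESeq2 1.26.0 results holds fold changes and P-values, which were not used, and the deposited mean signal (counts divided by size factors), which served only to find the 4 libraries behind it.

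Counts were normalized with TMM and tested with edgeR 4.0.16 (quasi-likelihood, filterByExpr) in R 4.3.3 on all genes, without siRNA596 replicate 2, and adjusted by Benjamini-Hochberg over all genes. Calls used an unadjusted *P* of 0.05. CPM values use TMM over all 5 libraries. FPKM is CPM per kilobase of the APPRIS principal transcript of GENCODE M21, a length chosen after seeing the data because unions of exons inflate some genes. DESeq2 1.42.0 and the other fits served as alternatives. The fits were checked on simulated counts (tested on simulated data with known changes). Figures were drawn with matplotlib 3.10.9.

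The members and lists were chosen with earlier results of these data known. Named genes were every member called, the highest and lowest of each family per length, and a list set by role. Other genes were named after their values were seen. The counts of a library cover 30660265 reads or more, so counting error is small for abundant members, whereas members with under 50 counts are imprecise.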

Additional observations from a re-analysis of the deposited data

Results flagged for a closer look

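The comparison of 2 KD with 2 NC libraries leaves out siRNA596 replicate 2, and in that library 20 members were over 2-fold from the mean of the other 4 libraries, 16 above it and 4 below. That is 27.0% of the members, beside 28.7% of all genes. Both NC libraries are among those 4.

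For 3 members the siRNA210 library lay on the opposite side of both NC libraries from both libraries labelled siRNA596, 4.05% of the members beside 4.63% of all genes. Gas5 in siRNA596 replicate 2 goes against that label. The log2 ratio of siRNA210 to the NC mean was -0.077 for Dnaja3, -0.20 for Dnajc25 and -0.051 for Hspa12b. The difference between the siRNAs was not tested, since siRNA210 has 1 library.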

How the results depend on the processing

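The 3 calls among the members at an unadjusted *P* of 0.05 were also 3 with DESeq2's size factors, with library size only and with robust fitting. The number was 5 with no filter on low counts and 1 with a minimum of 10 counts in every library, with all 5 libraries, and with all 5 libraries and offsets for length and GC. DESeq2 as the test gave 0. Of these alternatives, the share of all genes is given only for all 5 libraries (0.372%). The other counts have no background beside them. Without each library in turn it ran from 0 (without NC replicate 2) to 18 (without NC replicate 1), and the lone NC library was then assumed to vary like the KD libraries. The median log2 fold change of the members was 0.19 with all 5 libraries, 0.20 with the offsets, -0.016 with library size only and 0.010 with no filter, and from -0.0082 to 0.015 without each library in turn.

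With siRNA596 alone against NC the median was 0.19 and 1 member passed. With the replicate block the median was 0.18 and 2 members passed, Dnajc15 and Dnajc30, beside 2.70% of all genes. The correlation across genes of the deviations of same-numbered libraries was 0.097. With only 2 pairs it cannot show whether the numbers pair the samples. The labels name no shared batch, and the fits with and without the block are both given.

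Hspe1, at -0.20, turned to 0.79 with all 5 libraries, 0.65 with the offsets, and 1.11 and 0.79 with siRNA596 alone without and with the replicate block. Of 46 named members under 14 alternatives, 120 of 642 values changed sign while below the threshold for calling on both sides, 4 did so with a call on 1 side, all in Hspe1.

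With all 5 libraries the log2 ratio of summed CPM was 0.066 for DNAJA, 0.12 for DNAJB, 0.044 for DNAJC, 0.47 for the HSP-named partners, 0.32 for HSP60/HSP10, 0.31 for HSP70, 0.19 for HSP90, 0.32 for TRiC and 0.38 for small HSPs. These moved by more than the spread between replicates, and HSP110 did not. DESeq2's size factors moved none of them by that much. With the union of exons as length, an alternative chosen after seeing the data, the TRiC range was 3.21-fold and the median member in NC 12.0 FPKM. Members with few counts, such as Hspb9 and Hspa1l, are limited by depth, and all members by the number of libraries.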
